A study of Mus musculus with 40 samples.

Results

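The 41 genes described here are cell cycle genes of the mouse, chosen by name and found by Ensembl identifier among the 54307 genes of the normalized count table, where each symbol matched 1 identifier. They cover the proliferation marker Mki67, the machinery that copies DNA (the Mcm2 to Mcm7 helicase, Pcna, the nucleotide enzymes Rrm2, Tyms and Tk1) and the machinery of mitosis (cyclins, Aurora and Polo kinases, checkpoint and kinetochore proteins, spindle kinesins and cytokinesis factors). Choroid and retina of 20 mice were sequenced 3 days after 6 laser burns per eye, a model of choroidal neovascularization, which gave 40 libraries in 8 groups of 5. All mice carried 2 floxed Tgfbr2 alleles on a C57BL/6J background and received tamoxifen eye drops at 6 to 7 weeks of age. The control mice (CreNeg) had no Cre, and the Tgfbr2ΔEC mice (CrePos) carried 1 copy of a tamoxifen-inducible Cre under the endothelial Cdh5 promoter. Within each genotype, 5 mice each ate control food (– PLX) or food with PLX5622, an inhibitor of the CSF1 receptor that removes mononuclear phagocytes (+ PLX), from the first tamoxifen drop to the end. Both sexes were used, and of the choroid the central part with the lesions was taken. The question put to these genes is how much proliferation RNA remained when the phagocytes were removed.

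Most cell cycle genes are transcribed in waves. E2F factors switch on the DNA synthesis genes as a cell leaves G1, and the MYBL2 and FOXM1 complexes, which bind promoters through a short element known as the cell cycle genes homology region (CHR) and often beside CCAAT boxes, switch on the mitotic genes later. Many of these genes, Mki67 among them, are low in resting cells, while others are also transcribed outside the cycle. After a laser burn, endothelial cells, phagocytes, pigment epithelium, fibroblasts and glia can all enter the cycle, and RNA of whole tissue does not separate them. Nor can fewer cycling cells be told apart from less RNA per cell.

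The promoters show what these genes share beyond their names. RefSeq promoters (GRCm38.p6, 250 bases before to 50 after the start) were given for 35 of the 41 genes, with 39 start sites. CCAAT, read on both strands, stood in 30 of the 39 (76.9%) against 37.4% of all 32851 promoters of the same length. The CHR letters TTTGAA or TTCGAA stood in 21 (53.8%) against 19.2% of all, and the E2F-like letters TTCGCGC or TTGGCGC in 11 (28.2%) against 3.9%. A CCAAT and a CHR match together occurred in 20 (51.3%) against 7.5%. These are matches of letters and not measured binding. The 160 bases before the start are printed for 3 genes whose values are given per mouse below, 2 with CHR matches and 1 from the replication group with E2F-like matches, each from 5′ to 3′ on the gene's strand, with every match in capitals on either strand.
Mki67 (chr7:135716380-135716539, minus strand): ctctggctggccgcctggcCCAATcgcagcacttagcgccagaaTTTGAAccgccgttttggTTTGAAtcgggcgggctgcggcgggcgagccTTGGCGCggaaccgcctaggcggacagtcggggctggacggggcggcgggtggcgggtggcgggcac
Top2a (chr11:99024190-99024349, minus strand): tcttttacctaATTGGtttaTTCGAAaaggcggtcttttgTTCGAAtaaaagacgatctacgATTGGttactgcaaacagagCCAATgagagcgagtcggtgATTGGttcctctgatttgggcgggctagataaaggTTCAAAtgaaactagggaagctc
Mcm5 (chr8:75109349-75109508, plus strand): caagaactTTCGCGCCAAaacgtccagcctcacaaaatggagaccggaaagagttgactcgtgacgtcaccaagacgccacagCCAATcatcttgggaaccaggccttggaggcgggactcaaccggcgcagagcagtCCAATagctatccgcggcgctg
In the stretch of Mki67 1 CCAAT, 2 CHR and 1 E2F-like match were found, in that of Top2a 4 CCAAT and 3 CHR matches, and in that of Mcm5 2 CCAAT and 2 E2F-like matches that overlap each other.

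By the value of 1 read in each library, the depth was about 20940403 to 30421581 reads. Tgfbr2 itself was not called different between genotypes in whole choroid, of which endothelium is a part (8729 to 11300 normalized counts in the Tgfbr2ΔEC – PLX mice, 9836 to 10850 in controls – PLX; log2 difference -0.05, SE 0.09, limma adjusted p = 0.92). The phagocyte markers fell with PLX. Of 20 listed genes 19 were called lower in choroid (5.06% of all genes), with a median of 20.1% of the level without PLX left. In retina 18 of 20 were called lower (1.08% of all genes), with 4.6% left. The retina median lies near the floor, since 14 of the 20 genes averaged at or under 3 normalized counts in control + PLX and 13 in Tgfbr2ΔEC + PLX, and the mean sum of the list there went from 4597 to 752.6 in controls and from 3732 to 781.8 in Tgfbr2ΔEC mice. Csf1r, the receptor that PLX5622 blocks, kept 49.1% in choroid and 10.2% in retina.

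In choroid, RNA of the cell cycle genes was lower with PLX. All 41 genes had a difference below 0 over both genotypes, against 49.9% of all genes tested, and 19 of the 41 were called lower at an adjusted p at or under 0.05, where 5.06% of all 23619 genes were. At an unadjusted p under 0.05, 36 were lower (background 10.9%). None was called higher (background 2.07%). When each mouse was left out in turn, 11 of the 19 were called in all 20 fits, and 8 (Ttk, Ccna2, Mcm2, Ube2c, Hells, Bub1, Kif23 and Melk) were lost in 2 to 15 of them. The median difference was -0.47 on the log2 scale, or 72.1% of the level without PLX, with a range from -1.25 (Aurkb) to -0.16 (Mcm4). The phagocyte list thus kept 20.1% at the median and the cell cycle genes 72.1%.

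Mki67, which coats mitotic chromosomes and is lost from resting cells, stood at 1630, 1799, 1519, 2005 and 2162 normalized counts in the 5 control – PLX choroids and at 842, 713, 1958, 1104 and 943 in control + PLX. In the Tgfbr2ΔEC mice it stood at 1846, 1632, 2146, 1969 and 1091 without PLX and at 1041, 1397, 1264, 1058 and 988 with it. The groups overlap because of a single control + PLX mouse at 1958 and a single Tgfbr2ΔEC – PLX mouse at 1091, and apart from these mice every value with PLX lay below every value without. Over both genotypes Mki67 fell by 0.68 (SE 0.15, adjusted p = 0.0058; exact permutation p = 0.0012).

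Aurkb, the kinase of the chromosomal passenger complex that corrects chromosome attachment and drives cytokinesis, had the largest difference of the 41. It stood at 280, 285, 184, 199 and 377 in control – PLX and at 144, 125, 174, 68.2 and 100.2 in control + PLX. In Tgfbr2ΔEC mice the values were 250, 261, 335, 266 and 349 without PLX and 114, 113, 91.4, 79.8 and 182 with it. It was the only 1 of the 41 in which every choroid with PLX lay below every choroid without (background 1.75%). In the control mice alone this held for Aurkb and Mcm6 (background 3.27%), and in the Tgfbr2ΔEC mice alone for Aurkb (5.16%). These counts of members without overlap are near or below the share of all genes. Over both genotypes 42% of the Aurkb level was left (log2 -1.25, SE 0.18, adjusted p = 4.7e-05). The exact permutation p of 3.15e-05 is the smallest that the relabellings of diet within genotype can give.

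**Figure D1:**
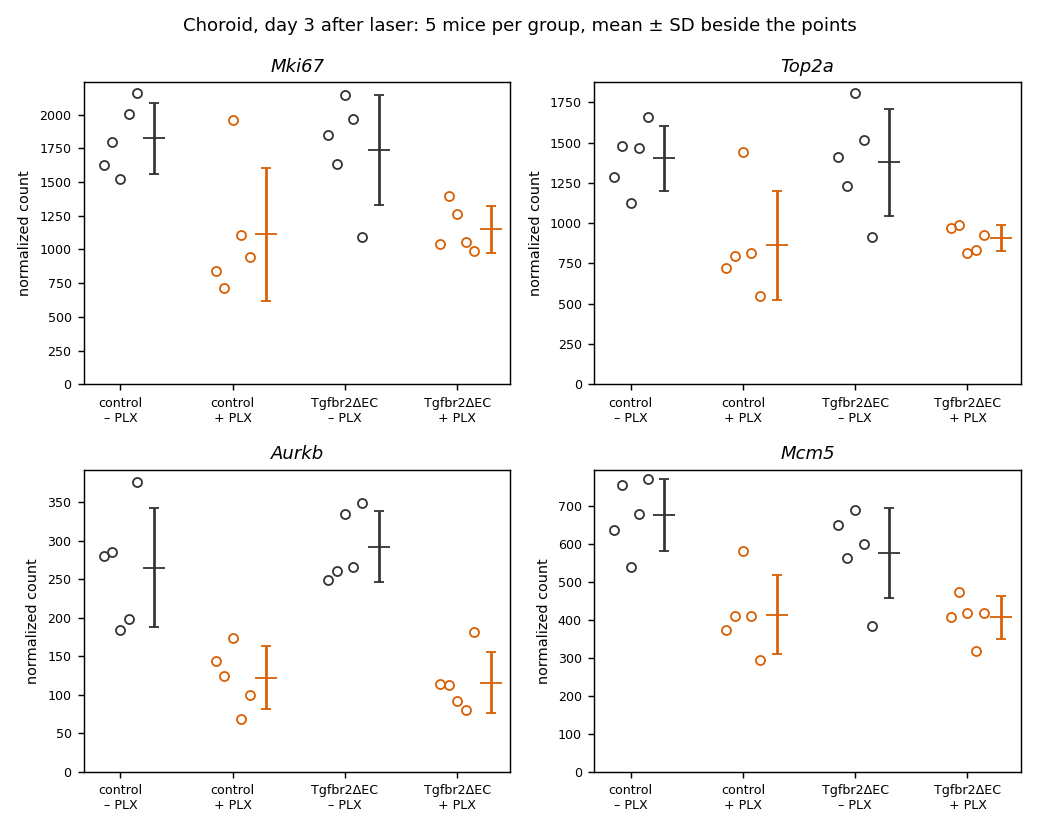
Normalized counts of Mki67, Top2a, Aurkb and Mcm5 in choroid, each circle 1 mouse in 4 groups of 5, with the mean and SD beside the circles and the axis starting at 0. The control + PLX mouse at 1958 for Mki67 is also the highest of its group for Top2a, Aurkb and Mcm5, and only in Aurkb do the diets separate fully.

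The 5 mitotic kinases had a median of -0.63, and 4 of them were called. Among the mitotic kinases, Plk1, which acts from mitotic entry to exit, fell by 0.63 (SE 0.14, adjusted p = 0.0051), and Ttk and Melk fell by 0.64 and 0.62, calls lost in 2 and 15 of the 20 fits that each left out 1 mouse. Aurka, the kinase of the centrosomes, was at -0.56 and was not called (adjusted p = 0.081). Of the cyclins and Cdk1, Ccna2 fell by 0.55, while Ccnb1 (-0.55, adjusted p = 0.11), Ccnb2 (-0.49, 0.056) and Cdk1, the kinase they activate (-0.35, 0.21), did not pass. Top2a, which untangles sister chromatids, stood at 1126 to 1659 in control – PLX and 549 to 1440 in control + PLX, and fell by 0.67 (SE 0.14, adjusted p = 0.0034).

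Of the 5 checkpoint and kinetochore genes 2 were called lower, Birc5, the survivin partner of Aurkb (-0.71, adjusted p = 0.0097), and Bub1 (-0.64, 0.037). Bub1b, the checkpoint protein BUBR1, had among the highest p-values of the 41 (-0.29, 95% interval -0.67 to 0.08). Cenpf, a kinetochore protein, had a difference of -0.69, but it ranged from 205 to 1053 within control – PLX alone, and its interval ran from -1.56 to 0.19. Ube2c, which feeds ubiquitin to the anaphase promoting complex, fell by 0.56 (lost in 11 of 20 fits) and its activator Cdc20 was at -0.46 (adjusted p = 0.11). None of the spindle genes Tpx2, Kif11 and Nusap1 was called (-0.42 to -0.47), and of the 5 midzone and cytokinesis genes only Kif23 was, just inside the threshold (-0.67, adjusted p = 0.048), next to Mybl2 just outside it (-0.73, adjusted p = 0.053).

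The MCM helicase had a median of -0.35. All 6 subunits of the MCM helicase, which unwinds DNA at the fork, were below 0 and 4 were called, Mcm5 (-0.61, SE 0.12, adjusted p = 0.0023), Mcm3 (-0.55), Mcm2 (-0.37) and Mcm6 (-0.33), while Mcm7 (-0.19) and Mcm4 (-0.16) were not. The call of Mcm2 was lost in 9 of 20 fits, those of Mcm3, Mcm5 and Mcm6 in none. Mcm5 stood at 637, 756, 539, 681 and 772 in control – PLX and at 373, 410, 581, 412 and 294 in control + PLX. In Tgfbr2ΔEC mice Mcm5 stood at 651, 564, 689, 599 and 384 without PLX and at 409, 474, 417, 318 and 418 with it. Within each genotype, 1 mouse made the diets overlap for Mcm5. Pcna, the sliding clamp, fell by 0.30 with a narrow spread (SE 0.07, adjusted p = 0.011), and Hells, a chromatin remodeller, fell by 0.89 with a wide one (SE 0.25, 0.036). Uhrf1, which carries DNA methylation through replication, had the highest p of the 41 (-0.30, adjusted p = 0.51). Tk1 fell by 0.65, whereas Rrm2 and Tyms, the other enzymes of nucleotide supply, were at -0.42 and -0.31 and not called. Among the transcription factors E2f1 fell by 0.42 (adjusted p = 0.0075) and Foxm1 was at -0.30 (0.22).

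**Figure D2:**
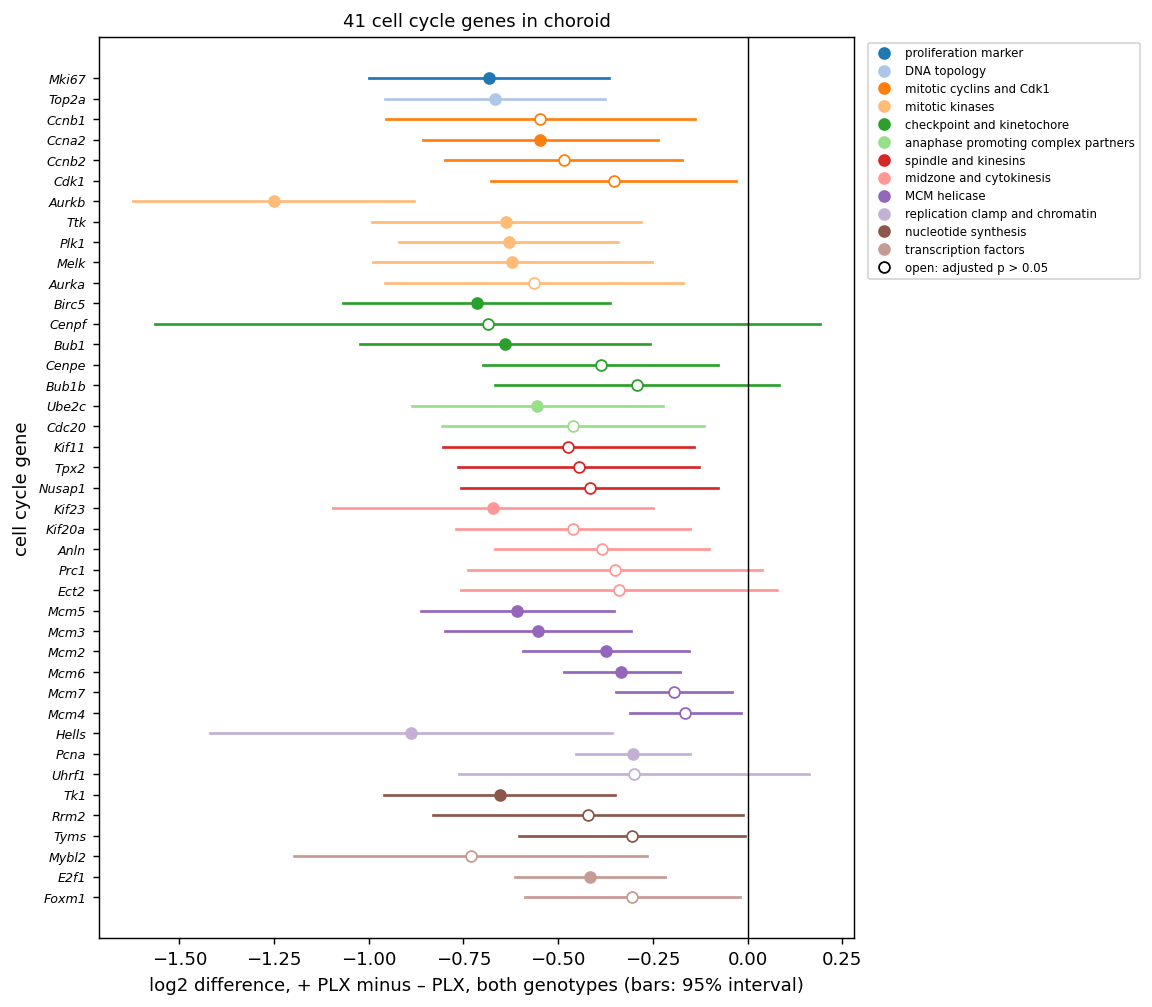
Difference of + PLX minus – PLX in choroid over both genotypes on the log2(normalized count + 1) scale for the 41 genes, coloured by role, with the 95% interval as a bar and filled circles for an adjusted p at or under 0.05. All 41 points lie below 0, Aurkb at -1.25 lies farthest out, and the interval of Cenpf is the widest.

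Other genes of the cell cycle showed a smaller median difference. Of 108 further cell cycle genes 27 were called lower (background 5.06%) and 1 higher (background 2.07%), 99 were below 0 (49.9% of all genes) and the median was -0.38. The 3 with the lowest p among those lower were the chromatin protein Hmgb2 (-0.51, adjusted p = 0.0005) and the condensin subunits Ncaph (-0.68) and Ncapg2 (-0.57). Cdk2, the kinase of S phase entry, was the 1 gene called higher (0.25, adjusted p = 0.005). None of 15 cell cycle inhibitors was called by limma, 3 had an unadjusted p under 0.05 in either direction, as did 4550 of all 23619 genes, which is a similar share, and their median was -0.12.

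Markers of other cells were measured in the same choroids. Of all 23619 genes tested there, 5.06% were called lower and 2.07% higher, and the count at an unadjusted p under 0.05 is given above. The 10 neural retina genes had a median diet difference of -1.12 over both genotypes (0.02 in controls and -2.28 in Tgfbr2ΔEC mice) with none called and 4 at an unadjusted p under 0.05, and their summed level ran from 46680 to 136800 in Tgfbr2ΔEC – PLX, from 2925 to 27090 in control – PLX, and from 2535 to 20940 with PLX apart from 1 control + PLX choroid at 133200. With this score as a covariate 12 members were called and all 41 stayed below 0. The 5 erythroid genes had a median of 1.35 with none called and all 5 at an unadjusted p under 0.05, and they summed to 394 to 4831 and 324 to 1225 in controls and Tgfbr2ΔEC mice without PLX and to 1210 to 5425 and 795 to 5742 with it. Of 9 endothelial genes 4 were called higher, with a median of 0.24 and sums of 28570 to 35670 without PLX and 31950 to 48890 with it. The 7 T and NK cell genes summed to 314.4 to 523.7 without PLX and to 112 to 274 with it, without overlap, and Cd4 was the 1 called (-2.17), with a list median of -0.28. The 7 Mueller glia and astrocyte genes had Apoe alone called lower (-0.72) and a median of 0.14, and summed to 158100 to 210100 without PLX and to 141100 to 166500 with it. Of 6 pericyte and smooth muscle genes Rgs5 (0.45) and Myh11 (0.74) were called higher, with a median of 0.19 and sums of 37000 to 51220 and 47980 to 65830. The part of the erythroid, endothelial, lymphocyte, glial and mural genes in the result was not tested.

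The control + PLX mouse with 1958 for Mki67, mouse 13, was the highest of its group in choroid for 36 of the 41 genes. Of the phagocyte markers its choroid had Csf1r at 3887 (3177 to 4986 in the other 4 mice), Aif1 at 94.6 (43.4 to 103.9) and Cx3cr1 at 177 (94.4 to 121). The whole list of 20 summed to 18980 there (13960 to 20240 in the other 4), with 6 of its genes the highest of the group and 2 the lowest. In its retina the list summed to 675.5, below the other 4 (708.6 to 815.6), with 1 gene the highest and 4 the lowest. The part of this in the high values of mouse 13 was not tested. Without this mouse 32 members were called lower in choroid in place of 19, and the median difference was -0.58. The Tgfbr2ΔEC – PLX mouse with 1091, mouse 10, was the lowest of its group for 31 of the 41 genes, and without it 26 members were called. Its phagocyte list summed to 53840 in choroid (52620 to 61780 in the other 4) and to 2614 in retina, below the other 4 (3022 to 5062), with 14 of 20 genes the lowest there. Without mouse 5, 8, 19 or 20 the count fell to 12, 11, 12 and 12. Over all genes, the calls in either direction ran from 1410 (without mouse 14) to 2127 (without mouse 12) in such fits. With all mice 1195 were lower and 489 higher.

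Within a genotype the calls were fewer. In controls 6 members were called lower (background 3.15%), Mki67, Top2a, Aurkb, Mcm3, Mcm5 and Mcm6, and the median was -0.64. In Tgfbr2ΔEC mice 1 was called, Aurkb (background 3.5%), a count no higher than the share of all genes, and the median was -0.41. Fitting only the 10 libraries of a genotype turned the 6 and 1 calls into 1 in controls and 4 in Tgfbr2ΔEC mice. The calls over all genes fell as well in that fit of the controls, with the counts given in the last section. The difference of the diet effects between genotypes was itself tested by limma, and 0 of the 41 members and 0 of all genes were called (background 0%), with 0 members and 6.57% of all genes at an unadjusted p under 0.05. For Mki67 that difference was 0.23 with a 95% interval from -0.41 to 0.86, and for Kif20a, a kinesin of the midzone, 0.49 (SE 0.29). Without mouse 13 the controls had 24 members called, and without mouse 5 they had 2. Without mouse 10 the Tgfbr2ΔEC mice had 5. Over all genes, leaving out 1 mouse gave 671 (without mouse 5) to 1091 (without mouse 12) calls in controls. In Tgfbr2ΔEC mice it gave 652 (without mouse 9) to 1405 (without mouse 15).

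Loss of endothelial Tgfbr2 left no call among the cell cycle genes in choroid. Without PLX limma called 0 of 41 members between genotypes (background 0.00423%) and 0 reached an unadjusted p under 0.05 (background 9.25%), while 29 were below 0 with a median of -0.09 (-0.16 to -0.01 with 1 mouse left out). The background there moved with mouse 15, without which 411 genes and 0 members were called. Mcm2 (-0.29, 95% interval -0.60 to 0.02) and Mcm6 (-0.16, -0.38 to 0.05) had the lowest p. With PLX limma again called 0 (background 0.00423%), with 0 at an unadjusted p under 0.05 (background 3.76%) and a median of 0.08 (-0.01 without mouse 17 to 0.28 without mouse 13), and the lowest p belonged to Mcm2 (-0.24, -0.55 to 0.07) and Anln, the anillin of the cleavage furrow (0.28, -0.12 to 0.68). For Mki67 the interval without PLX, with 5 mice in a group, ran from -0.54 to 0.35, and differences within it are not excluded.

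In retina most of these genes were rare. Compared with retina, 39 of 41 members were called higher in choroid over all 4 groups (background 40.8%), with a median difference of 3.59 on the log2 scale. Mki67 and Top2a were 7.10 and 7.12 higher, and retina held 1.85% and 1.43% of their choroid means. In 14 of the 41 genes at least 1 retina lay at or under 3 reads, among them Aurkb and Melk in 13 of 20, while no choroid did. Ccna2 and Bub1b were called lower in choroid, 2 of 41 (background 41.1%). Ccna2 averaged 893 in retina and 738 in choroid (-0.30, SE 0.11, adjusted p = 0.0099), and Bub1b 786 and 395 (-0.97, SE 0.14, 7.5e-08). Per kilobase of transcript the retina means were 925 for Pcna, 301 for Ccna2, 214 for Bub1b and 144 for Mcm7, but 2.62 for Mki67. Exosc9 (mean 539.2 over the libraries) lies on the opposite strand over Ccna2, and its part in the Ccna2 level was not tested.

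**Figure D3:**
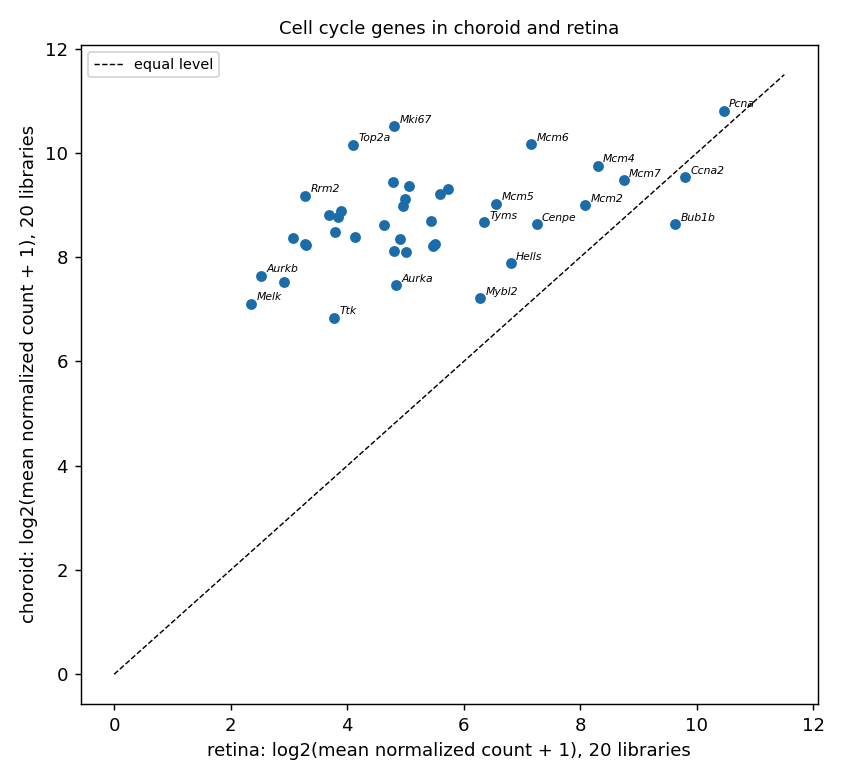
Mean level of each of the 41 genes in retina (horizontal) and choroid (vertical) over 20 libraries each, both as log2(mean normalized count + 1), with selected genes named and a dashed line of equal level. Ccna2 and Bub1b lie below the line, Pcna lies close to it, and Mki67 and Top2a lie far above it.

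With PLX, 36 of 41 members were below 0 in retina (49.2% of all genes) and 1 was called lower, Mki67 (background 1.08%, so that the count is near that of all genes). None was called higher (background 0.0172%). The median difference was -0.37, and 13 were lower at an unadjusted p under 0.05 (background 3.93%). Within a genotype limma called 0 in controls (background 0.727%) and 0 in Tgfbr2ΔEC mice (0.512%), each with 7 members at an unadjusted p under 0.05 (backgrounds 5.74% and 3.95%). Mki67 stood at 138, 14.2, 26.96, 9.93 and 66.6 normalized counts in control – PLX retinas and at 0, 1.76, 98.3, 3.98 and 1.52 in control + PLX. In Tgfbr2ΔEC mice it stood at 60.9, 65.3, 20.9, 15.3 and 5.56 without PLX and at 1.73, 0, 4.72, 1.82 and 0.737 with it. For Mki67 the retina of mouse 13, at 98.3, stood apart from its group, while it was the highest of the group for 8 of the 41 genes. In the Tgfbr2ΔEC mice every retina with PLX lay below every retina without for Mki67, as for Foxm1 (2 of 41, background 0.916%). Over both genotypes this held for 0 of 41 (background 0.422%). Mki67 fell by 3.06 (SE 0.69, adjusted p = 0.025; exact permutation p = 0.0014), and by 3.59 without mouse 13. Without mouse 1, 5, 6, 7, 12, 15, 17 or 20 it was no longer called, nor with a pseudocount of 5 (-1.98, adjusted p = 0.089).

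Uhrf1, Aurkb and Ube2c followed Mki67 by p in retina and were not called. Uhrf1 stood at 32.2, 18.4, 66.2, 19.3 and 10.2 in control – PLX and at 9.15, 4.5, 3.63, 3.57 and 1.97 in control + PLX. It was the 1 member of 41 with no overlap in controls (background 1.16%), a count near that of all genes. In the Tgfbr2ΔEC mice it overlapped, at 1.65 to 25.4 without PLX and 4.19 to 12.9 with it (both genotypes -1.32, SE 0.40, adjusted p = 0.21). Aurkb was listed at 0 in 4 of 5 control + PLX retinas and 3 of 5 Tgfbr2ΔEC + PLX retinas, against 1 of 5 and none without PLX (-1.78, adjusted p = 0.34). Of the 8 members with the highest mean in retina, Pcna (-0.10), Ccna2 (0.11), Bub1b (-0.06), Mcm7 (0.12) and Mcm4 (-0.02) lay near 0, and Mcm2 (-0.50, adjusted p = 0.73), Cenpe (-0.24, adjusted p = 1.00) and Mcm6 (-0.20, adjusted p = 0.83) were further below it without a call. Hells, the next, was at -0.58 (adjusted p = 0.62). Of the other 108 cell cycle genes 1 was called lower in retina (background 1.08%, so that the count is near that of all genes), the mitotic kinase Pbk (-2.15, adjusted p = 0.016), with a median of -0.07 over the list.

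**Figure D4:**
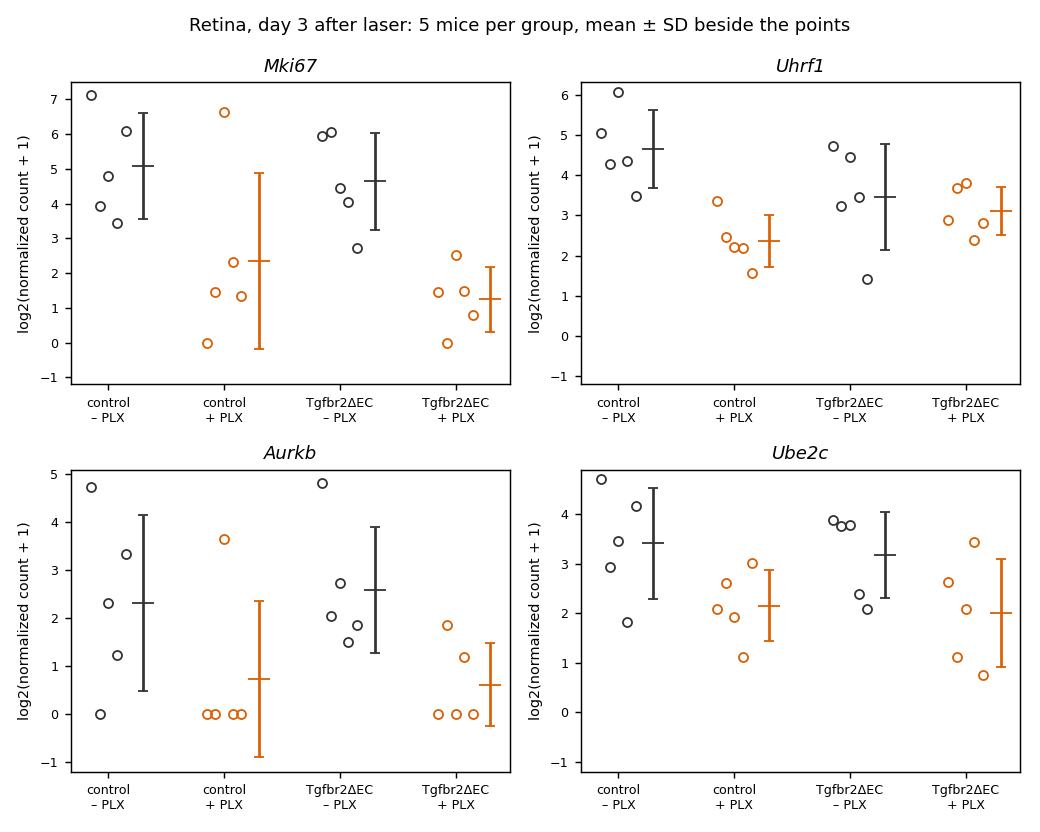
Level of Mki67, Uhrf1, Aurkb and Ube2c in retina as log2(normalized count + 1), the 4 members with the lowest p there, each circle 1 mouse in 4 groups of 5, with the mean and SD beside the circles. A value of 0 marks a retina listed at 0, and the single high control + PLX circle of Mki67 and Aurkb is mouse 13.

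None of the 41 members was called by limma for a difference of the diet effect between choroid and retina (background 1.37%), while 6 had an unadjusted p under 0.05 (background 10.2%). For Mki67 the difference was 2.37 (SE 0.74, adjusted p = 0.12). In retina limma called 0 members between genotypes with either diet (background 0%), with 3 at an unadjusted p under 0.05 without PLX (background 3.26%) and 1 with PLX (2.71%). Without PLX, Mcm5 (-0.53, 95% interval -0.97 to -0.10) and Uhrf1 (-1.19, -2.36 to -0.02) had the lowest p, and with PLX Kif20a (-1.07, -1.99 to -0.15) and Melk (-1.24, -2.52 to 0.03).

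Across the 10 mice of a diet, Mki67 and Csf1r were compared in 4 sets. In retinas without PLX they varied together (Pearson r = 0.84, permutation p = 0.0027, adjusted p = 0.011; Spearman rho = 0.76, permutation p = 0.015, adjusted p = 0.059; r = 0.88 without the 2 farthest mice). In retinas with PLX, Mki67 lay at or under 3 reads in 7 of the 10 mice, so that nothing is read from the correlation there, which had the opposite sign (Pearson r = -0.75, permutation p = 0.024, adjusted p = 0.047; Spearman rho = -0.52, permutation p = 0.13, adjusted p = 0.26; r = -0.42 without the 2 farthest mice). The adjusted values cover all 4 sets. In choroid r was 0.25 without PLX (permutation p = 0.43, adjusted p = 0.57; rho = 0.21, p = 0.56, adjusted p = 0.75) and 0.01 with PLX (permutation p = 0.98, adjusted p = 0.98; rho = -0.08, p = 0.84, adjusted p = 0.84). Without the 2 farthest mice these became 0.62 and -0.53.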

How the data were processed

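Libraries were stranded, poly-A selected and read from 1 end. The authors checked reads with FastQC 0.11.5, quantified them with Salmon 1.10.1 on GRCm39, and scaled the estimates with DESeq2 1.36.0. The deposited signal per gene, called normalized count here, is not whole, and whole reads could not be recovered, so no count test was run. Over 15800 genes above 0 everywhere, each library had a median ratio of 1.0082 to the geometric mean, which shows 1 scaling for both tissues. GENCODE names for GRCm39 matched 53700 of 54307 identifiers. From the spacing of low values, 1 read was worth between 0.905 and 1.19 (choroid) and between 0.745 and 1.125 (retina). Floors cover counting error only.

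Members and gene lists were chosen with earlier results of these data known. Genes averaging 1 or more (23619 in choroid, 23243 in retina, 24317 over both) were tested with limma 3.58.1 (R 4.3.3, trend) after adding a pseudocount of 1 and taking log2, which understates changes of low genes. The 4 groups of a tissue, or all 40 libraries for tissue comparisons, shared 1 fit without covariates, and sex and neural retina scores were alternatives. Adjustment was by Benjamini-Hochberg over all genes, called at 0.05, and the procedure was tested on simulated data. Single genes were also compared by exact two-sided permutation of diet within genotype, and correlations by random two-sided permutation (Python 3.11.15). Named genes were representatives of each role and those with the lowest or highest p, or nearest the threshold, in a comparison. Further members named for the role groups were chosen after their values were seen. Choroid and retina of a mouse share its number. Their deviations from the group means correlated at -0.158 to 0.289 (median 0.126, over 0.1 in 12 of 20 mice). Promoter letters were searched in RefSeq sequences of GRCm38.p6, another build than that of the expression values, and overlapping matches of different motifs were both counted. The limma p-values set a difference against the spread between mice, which was pooled over the groups of a fit and moderated across genes.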

Additional observations from a re-analysis of the deposited data

Results flagged for a closer look

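Of 192 groups of 5 tested over 24 of the genes, 22 held 1 library far from the other 4 by Dixon's ratio (above 0.71). This cutoff is set for about 1 in 20 groups of independent, normally distributed values, and no rate was computed for these counts. All 22 lay on the high side. All values are normalized counts, with the range of the other 4 in brackets, and no explanation was tested.

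Mouse 13 of control + PLX held 9 of the 22. In its choroid stood Ccnb1 at 487.8 (149.6 to 238.7), Cdk1 at 755.4 (288.3 to 375) and Birc5 at 536.1 (179.2 to 280.1). Rrm2 was at 953.2 (321.9 to 409.4), Anln at 793.1 (407.2 to 474.6), Kif20a at 538.3 (231.1 to 279) and Melk at 178.6 (80.81 to 94.84). In its retina Mki67 was at 98.34 (0 to 3.984) and Aurkb at 11.51 (0 in the other 4).

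In the retina of mouse 6 (Tgfbr2ΔEC – PLX), Top2a was at 77.48 (0 to 10.25), Aurkb at 26.77 (1.836 to 5.626) and Bub1b at 1384 (522.9 to 738.8). In that of mouse 19 (Tgfbr2ΔEC + PLX), Bub1b was at 1340 (417.3 to 654.3) and Mcm2 at 562.3 (140 to 226.2). Of the control + PLX retinas, mouse 12 had Ccnb1 at 17.13 (0 to 1.712) and Rrm2 at 22.59 (3.08 to 5.54), and mouse 14 had Melk at 6.999 (0.9065 to 2.542) and Kif23 at 44.76 (1.581 to 5.87). Mouse 17 (Tgfbr2ΔEC + PLX) had Rrm2 at 751.1 in choroid (392.7 to 474.6) and Mcm5 at 128.2 in retina (79.3 to 93.43). Bub1b reached 813.3 in the choroid of mouse 5 (control – PLX, 287.9 to 439.6), and Foxm1 82.83 in the retina of mouse 1 (control – PLX, 15.69 to 31.96).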

How the results depend on the processing

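In choroid over both genotypes, 41 of 41 genes stayed below 0 in every alternative and leave-one-out fit. The 19 calls became 12 with the neural retina score as covariate, and 15 to 21 in the other planned settings. Leaving out 1 mouse gave 11 (without mouse 8) to 32 (without mouse 13) calls, 2 to 24 in controls alone and 1 to 5 in Tgfbr2ΔEC mice alone. Over all genes these fits gave 1410 to 2127, 671 to 1091 and 652 to 1405 calls. Leave-one-out counts were 0 to 2 in retina over both genotypes, 0 to 1 in retina of controls, 0 to 1 in retina of Tgfbr2ΔEC mice and 0 to 1 for the difference between tissues. Over all genes they were 206 to 266, 125 to 198, 96 to 127 and 278 to 620. With a pseudocount of 5, 0 members were called in retina. Fitting only the 10 libraries compared gave 1 call in choroid of controls, 4 in choroid of Tgfbr2ΔEC mice and 1 in retina of Tgfbr2ΔEC mice, with fewer samples to estimate the spread. The mean log2 level of the members in retina moved to 5.264 (control + PLX) and 5.183 (Tgfbr2ΔEC + PLX) with a pseudocount of 5, and to 4.586 (Tgfbr2ΔEC + PLX) with 0.5. The correlation of Mki67 and Csf1r in choroid with PLX went from 0.009 to -0.0299 with upper-quartile scaling. Over all genes, calls fell from 958 to 534 with the neural retina covariate (choroid, Tgfbr2ΔEC diet), from 885 to 572 with 10 libraries (choroid, control diet), and, at a minimum mean of 10, from 254 to 154 (retina, both genotypes) and from 171 to 104 (retina, controls). For genotype in choroid without PLX, 1 gene became 0 at a minimum mean of 10, 303 with 10 libraries and 411 without mouse 15. With the mouse as replicate block, tissue comparisons called 41, 40 and 0 members, which changed no call count. The causes were not tested. Retina depth limits 14 members, which had a library at or under 3 reads.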
